A study of Mus musculus with 6 samples.

Results

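Ago4, Slc15a2, Mfge8 and Pde4b are 4 genes whose transcripts stood at a higher level in BCR/ABL stem cells from mice given imatinib than in untreated BCR/ABL stem cells. They were chosen by that difference, as genes with small p-values in the comparison of imatinib with BCR/ABL, so their values in it are a description and carry no test. The comparisons with vector share the imatinib or the BCR/ABL arrays, and the estimated spread between replicates, with that choice. A choice by small p-values favours large differences and a small spread. The intervals of these genes against vector may thus be too narrow and the p-values too small, and neither is an independent test. All probe sets annotated to 1 of the 4 symbols alone were followed, which gave 12 probe sets of 35877 tested and 4 genes of 18193. Ago4 had 2 probe sets, Slc15a2 had 3, Mfge8 had 1 and Pde4b had 6.

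The cells were mouse bone marrow stem cells sorted as GFP-positive, lineage-negative, c-Kit-positive and Sca-1-positive, measured on 6 Affymetrix arrays. There were 2 arrays of cells that expressed BCR/ABL and came from mice with a chronic myeloid leukaemia given imatinib (called imatinib here), 2 of cells that expressed BCR/ABL and came from untreated mice, and 2 of cells that carried the empty GFP vector. All 3 groups were thus transduced cells. The sources used here state neither the strain and age of the mice nor the dose and duration of imatinib. They also do not say that replicates came from different animals. A p-value thus rests on the spread between the 2 arrays of a group, possibly a technical one. That spread was pooled over the 3 groups and drawn towards that of other probe sets.

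Argonaute proteins, among them the product of Ago4, hold small RNAs such as microRNAs and bring them to target transcripts. Pde4b encodes a phosphodiesterase that breaks down cyclic AMP, the second messenger made by adenylyl cyclases and read by protein kinase A. Slc15a2 encodes a proton-coupled transporter that takes up dipeptides and tripeptides. Mfge8 encodes lactadherin, a secreted protein that binds phosphatidylserine on dying cells and integrins on phagocytes and so bridges them. BCR/ABL, a fusion kinase, drives chronic myeloid leukaemia and is the target of imatinib.

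The promoter windows of the 4 genes are shown because all 4 transcripts had their lowest mean in BCR/ABL and their highest with imatinib. Each runs from 250 bases before to 50 after a RefSeq transcription start of build GRCm38.p6, 5′ to 3′ on the gene's strand, and capitals mark the core TGACG of the cyclic AMP response element on either strand. The windows lie at chr4:126533409-126533708 on the minus strand for Ago4, chr16:36784913-36785212 on the minus strand for Slc15a2, chr7:79149011-79149310 on the minus strand for Mfge8 and chr4:102421305-102421604 on the plus strand for Pde4b. Pde4b has 4 windows in the table, and the 1 that holds this core is shown.
Ago4: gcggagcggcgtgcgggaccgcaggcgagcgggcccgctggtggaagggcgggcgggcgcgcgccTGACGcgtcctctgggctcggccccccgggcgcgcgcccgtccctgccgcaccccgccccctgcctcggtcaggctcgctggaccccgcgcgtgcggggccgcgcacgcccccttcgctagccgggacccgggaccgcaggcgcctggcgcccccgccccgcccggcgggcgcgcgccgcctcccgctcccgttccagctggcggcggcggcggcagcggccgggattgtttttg
Slc15a2: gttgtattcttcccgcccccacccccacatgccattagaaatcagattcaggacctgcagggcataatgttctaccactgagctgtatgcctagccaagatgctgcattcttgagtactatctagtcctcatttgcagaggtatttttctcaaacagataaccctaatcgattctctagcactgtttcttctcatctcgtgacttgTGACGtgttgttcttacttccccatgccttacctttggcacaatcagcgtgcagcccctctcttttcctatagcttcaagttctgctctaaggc
Mfge8: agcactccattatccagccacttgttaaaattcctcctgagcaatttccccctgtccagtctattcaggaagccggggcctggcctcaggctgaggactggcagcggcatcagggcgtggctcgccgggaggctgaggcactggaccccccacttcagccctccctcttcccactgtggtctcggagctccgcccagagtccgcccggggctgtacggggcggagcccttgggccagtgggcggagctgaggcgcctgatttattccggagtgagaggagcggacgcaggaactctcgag
Pde4b: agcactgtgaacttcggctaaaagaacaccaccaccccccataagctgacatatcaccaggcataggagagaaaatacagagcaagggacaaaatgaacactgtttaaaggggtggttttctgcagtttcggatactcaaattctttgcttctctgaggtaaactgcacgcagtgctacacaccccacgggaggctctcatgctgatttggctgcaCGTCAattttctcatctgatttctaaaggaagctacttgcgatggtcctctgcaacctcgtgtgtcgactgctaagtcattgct

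The core was found in 3 of the 7 windows of the 4 genes, 1 each in Ago4, Slc15a2 and Pde4b, and in 20.8% of all 32851 windows of that table. It began 185 bases before the start in Ago4, 44 before it in Slc15a2 and 34 before it in Pde4b. The Mfge8 window held none. The forkhead motif GTAAACA was in 0 of the 7 windows, against 3.65% of all windows, and so was the E-box CACGTG, against 7.15%. The STAT motif with the letters TTCNNNGAA was in 1 of the 7, another window of Pde4b, against 8.30% of all. The GC box GGGCGG, searched on both strands like the others, was in 3 of the 7 windows, 5 times in Ago4, 4 times in Mfge8 and 1 time in Slc15a2, where matches may overlap, against 35.7% of all windows. The windows also differed in base composition: 83.3% of the Ago4 window was G or C, 64.3% of that of Mfge8, 46.3% of that of Slc15a2 and 47.0% of the Pde4b window shown, beside a median of 52.7% over all windows. These matches describe letters in short windows and do not show binding.

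Levels below are deposited intensities, 1 value for each probe set and array, scaled by the authors so that the trimmed mean of each array was 500. Differences are on the log2(intensity + 16) scale after quantile normalization, and each gene is represented by its brightest probe set. The vector arrays differed most from each other: 3694 probe sets were more than 2-fold apart between them, against 1611 between the imatinib arrays and 860 between the BCR/ABL arrays. The signal ratio of 3-prime to 5-prime probe sets of beta-actin was 1.74 and 1.55 with imatinib, 1.48 and 1.30 in BCR/ABL and 1.81 and 1.62 in vector, so it was lowest in the group in which the 4 genes were lowest. Its part in their values was not tested. Of the sort markers, Kit had 2659 and 2602 with imatinib, 1332 and 1116 in BCR/ABL and 1637 and 2125 in vector, and Ly6a, which encodes Sca-1, was not analysed here.

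The level of Ago4 with imatinib lay close to that of vector, as did that of Pde4b. Its probe set 1453289_at had 879 and 998 with imatinib, 233 and 237 in BCR/ABL, and 746 and 691 in vector. The 2 BCR/ABL arrays were far below the other 4, and the 2 imatinib arrays were above both vector arrays by a small margin. The level with imatinib was 3.54-fold that in BCR/ABL on the log2 scale with the added constant, a difference of 1.83. In bulk RNA of sorted cells, fewer cells with a transcript and less of it in each cell cannot be told apart.

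Against vector, Ago4 was 0.35 higher with imatinib (95% interval -0.08 to 0.77; limma adjusted p = 0.453), and the interval holds 0. In BCR/ABL it was lower than in vector by 1.48 (a log2 difference of -1.48, interval -1.91 to -1.05, adjusted p = 0.0778), which did not pass the threshold of 0.05. Over the alternative settings the adjusted p of that difference ran from 0.0308 to 0.665. The second probe set of Ago4, 1429779_at, had 439.8 and 631 with imatinib, 144 and 168 in BCR/ABL, and 374 and 433 in vector. It followed the first closely, with a Pearson correlation of 0.98 over the 6 arrays, and its imatinib and vector values overlapped on the normalized scale. The platform annotation gives both probe sets the same accession, so they may read the same transcript sequence.

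Pde4b showed the same order of groups in its brightest probe set. Probe set 1422474_at had 3307 and 3029 with imatinib, 1392 and 1416 in BCR/ABL, and 2575 and 2634 in vector. Replicates were close, and no 2 groups overlapped. The difference of imatinib from BCR/ABL was 1.21, or 2.31-fold. Against vector, the imatinib level was 0.30 higher (interval 0.07 to 0.53; limma adjusted p = 0.277) and the BCR/ABL level differed by -0.91 (interval -1.14 to -0.67; adjusted p = 0.0751). Neither passed the threshold over all probe sets.

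The other 5 probe sets of Pde4b disagreed in part with the first and with each other. Probe set 1442700_at had 300.4 and 700.2 with imatinib, 105 and 279.9 in BCR/ABL, and 524 and 761 in vector. It was lower in replicate 1 than in replicate 2 of every group, and its imatinib level was 0.49 below vector (a log2 difference of -0.49, interval -1.80 to 0.82, adjusted p = 0.741), the opposite side from 1422474_at. Probe set 1422473_at was dimmer, with 147 and 201 with imatinib, 84.6 and 84.1 in BCR/ABL, and 99.5 and 118 in vector. Both imatinib arrays were above the other 4, while the BCR/ABL and vector values overlapped on the normalized scale, with a difference of -0.10 (adjusted p = 0.944). The remaining 3, 1444731_at, 1446577_at and 1447718_at, were the probe sets with a negative difference between imatinib and BCR/ABL, from -0.22 to -0.01. Each of them was below 16 on all 6 arrays, 5.20 being their highest intensity, so they give no measurable level of Pde4b here and no reading against the other 3.

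**Figure D1:**
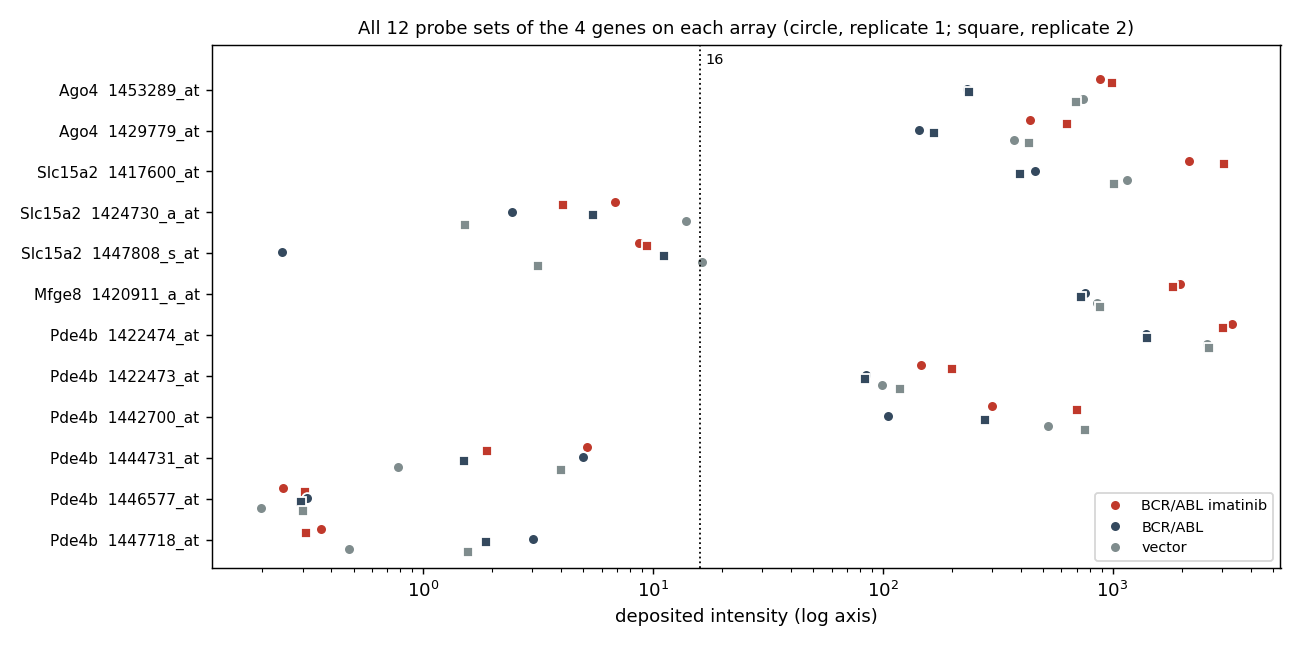
Deposited intensity on a log axis for each of the 12 probe sets, with BCR/ABL imatinib in red, BCR/ABL in dark blue and vector in grey, 2 arrays each. The 3 probe sets of Pde4b with a negative difference between imatinib and BCR/ABL, and both dim probe sets of Slc15a2, lie around or left of the dotted line at 16.

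Slc15a2 had the largest difference of the set and stood above vector as well. Probe set 1417600_at had 2155 and 3044 with imatinib, 459.8 and 396 in BCR/ABL, and 1160.0 and 1016 in vector. The groups did not overlap, with imatinib highest, vector between and BCR/ABL lowest. The difference of imatinib from BCR/ABL was 2.52, or 5.74-fold. Against vector, the level was 1.22 higher with imatinib (interval 0.71 to 1.74; limma adjusted p = 0.146), a 2.34-fold difference seen in both imatinib arrays but not past the threshold. In BCR/ABL it differed from vector by -1.30 (interval -1.81 to -0.78; adjusted p = 0.155).

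The other 2 probe sets of Slc15a2 did not show these differences. Probe set 1424730_a_at had 6.86 and 4.05 with imatinib, 2.43 and 5.52 in BCR/ABL, and 13.9 and 1.52 in vector. Probe set 1447808_s_at had 8.69 and 9.47 with imatinib, 0.245 and 11.2 in BCR/ABL, and 16.4 and 3.18 in vector. All 3 groups overlapped in both, the values were below 16 except in vector replicate 1 of the second, and their correlations with 1417600_at over the 6 arrays were 0.02 and 0.16. The account of Slc15a2 therefore rests on 1 probe set.

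Among the brightest probe sets, Mfge8 differed from the other 3 genes in that its BCR/ABL level lay close to vector. The dimmer 1422473_at of Pde4b shared this, with a difference of -0.10 between BCR/ABL and vector. Whether the genes were unequal in it was not tested. The single probe set of Mfge8, 1420911_a_at, had 1969 and 1842 with imatinib, 755 and 732 in BCR/ABL, and 852 and 883 in vector. Both imatinib arrays were far above the other 4, and the BCR/ABL arrays lay just below the vector arrays. The difference of imatinib from BCR/ABL was 1.34, or 2.54-fold. The BCR/ABL level differed from vector by -0.24 (interval -0.54 to 0.07; limma adjusted p = 0.538). The imatinib level was 1.11 above vector, or 2.15-fold (interval 0.80 to 1.41, limma adjusted p = 0.0890). That missed the threshold with all probe sets tested. It passed (adjusted p = 0.0350) when probe sets under the 50th percentile of mean level were left out. The gene was chosen on the same imatinib arrays and spread, so this adjusted p is no independent test. Over all alternative settings that adjusted p ran from 0.0350 to 0.387.

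**Figure D2:**
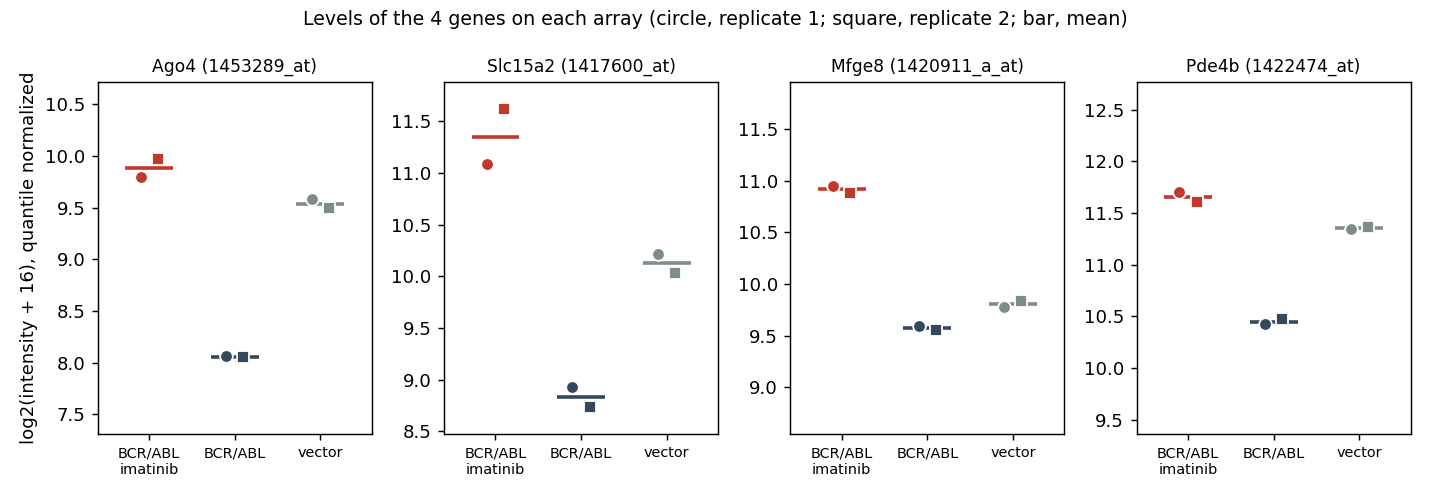
Normalized log2 level of the brightest probe set of each gene on each array, with BCR/ABL imatinib left, BCR/ABL in the middle and vector right, and a bar at each group's mean; every panel spans the same range of log2 units. The imatinib and vector means are 0.35 apart for Ago4 and 0.30 for Pde4b, and 1.22 apart for Slc15a2 and 1.11 for Mfge8.

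On arrays alone, the brightest probe set of each of the 4 genes had both imatinib values above both BCR/ABL values, as it would from the way the genes were chosen. That held for 22.5% of the 35877 probe sets, and nothing is read from the count. In all 4 genes both imatinib values were also above both vector values, which held for 10.2% of all probe sets and for 48.9% of the 4495 genes with imatinib above BCR/ABL. The 4 genes were among the 10052 whose brightest probe set lay in the upper 50% by mean. There the shares were higher, at 15.9% of all and 52.7% of those with imatinib above BCR/ABL. In all 4 both BCR/ABL values were below both vector values, beside 19.7% of all probe sets. The like share among genes with imatinib above BCR/ABL is not given here, so nothing is read from that count. These counts share their imatinib or BCR/ABL arrays with the comparison that chose the genes. For Ago4 and Mfge8 the order of imatinib above vector held in all 15 alternative settings. It was lost in 1 for Slc15a2, with the probe sets of the gene averaged, and in 2 for Pde4b, with averaged probe sets and with arrays centred on their medians. The added constant, filter, variance prior and block settings could not change this order, and leaving out an array leaves fewer values that could overlap. The 15 settings are therefore not 15 separate checks of it.

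**Figure D3:**
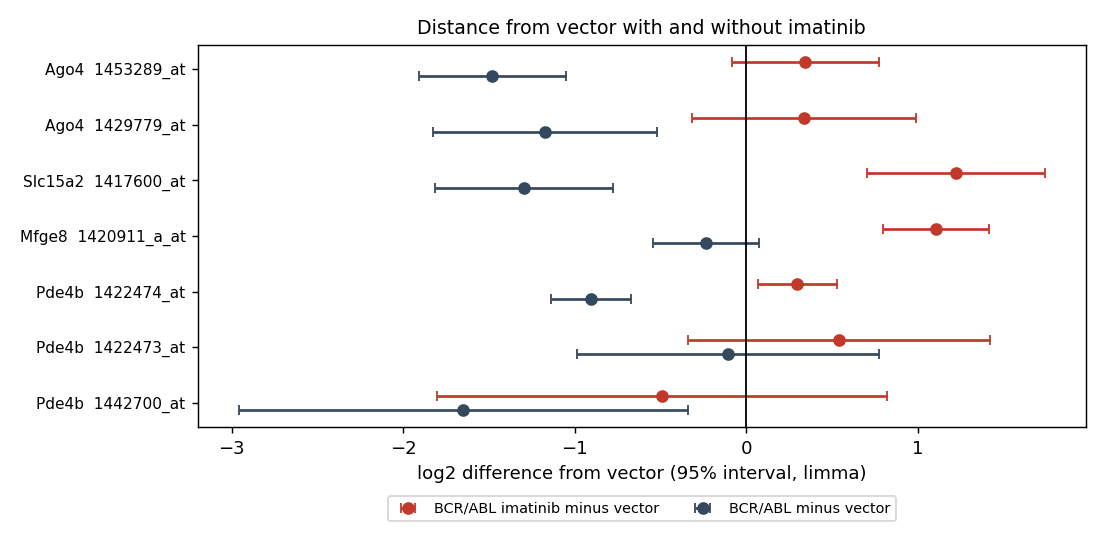
Log2 difference from vector, with 95% intervals from limma, for the 7 probe sets above 20 in intensity on at least 1 array, with imatinib minus vector in red and BCR/ABL minus vector in dark blue. The red intervals of Ago4 and of 2 Pde4b probe sets cross 0, while those of Slc15a2, of Mfge8 and of 1422474_at of Pde4b do not.

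Across all probe sets, limma called 0.0613% in BCR/ABL against vector, 22 in number, and 0.0446% in imatinib against vector, which were 15 higher and 1 lower, or 201 higher and 74 lower with arrays centred on their medians. In imatinib against BCR/ABL it called 0% at the threshold, with 5238 probe sets at an unadjusted p under 0.05, 2246 of them higher. None of the 12 probe sets of the 4 genes was among the calls in either comparison with vector.

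Markers of other cell types also differed between these groups. Of the 9 measured mast cell and basophil markers, 9 were higher with imatinib than in vector and 2 of them passed, Hdc (2.44, limma adjusted p = 0.0363) and Tpsab1 (5.81, adjusted p = 0.0484), the second below 16 on both vector arrays. The summed intensity of that list ran from 48995 to 58707 with imatinib, 35545 to 35791 in BCR/ABL and 6602 to 11694 in vector. Imatinib was highest in that sum, as in the 4 genes, while vector was lowest in it and BCR/ABL was lowest in the 4 genes. The 9 B cell markers were all lower with imatinib than in vector, with sums of 686 to 1762 with imatinib, 1285 to 2411 in BCR/ABL and 4724 to 22784 in vector. Pax5 was below 16 on both arrays of every group, so it gives no reading between them. Ms4a1 was below 16 on both imatinib and both BCR/ABL arrays, and Cd79a and Rag1 on both imatinib arrays. Macrophage and dendritic cell markers, of interest for Mfge8 because such cells make it, summed to 6067 to 9464 with imatinib, 7476 to 12371 in BCR/ABL and 5539 to 15857 in vector, so the groups overlapped and 2 of 10 were higher with imatinib than in vector. Stromal and endothelial markers summed to 1953 to 2261 with imatinib, 1234 to 1457 in BCR/ABL and 1155 to 1265 in vector, with 4 of 9 higher and 5 lower with imatinib both against BCR/ABL (median -0.10) and against vector (median -0.03). Imatinib was highest in that sum, as for Mfge8, and its member Pdgfrb stood at 919.7 and 1278 with imatinib against 349 and 442 in vector, while Col1a1, Col3a1, Lepr and Cdh5 were below 16 on both imatinib arrays. Megakaryocyte markers, 7 of 7 higher with imatinib than in vector (6 of 7 with arrays centred on their medians) and 0 called, summed to 3843 to 4638 with imatinib, 2226 to 2519 in BCR/ABL and 1403 to 1411 in vector. T cell markers were lower than in vector in 7 of 7 genes with imatinib, granulocyte markers higher in 6 of 9, erythroid markers higher in 2 of 6 and sort and stem cell markers higher in 7 of 8, with 0 called in each list. The T cell sums were low, at 91.9 to 155 with imatinib, 67.7 to 112 in BCR/ABL and 150 to 1054 in vector. Imatinib and vector thus overlapped in that sum, and its high vector value came from replicate 1. Vector replicate 1 also gave the higher vector sum in every other marker list but 1, though by little for megakaryocyte markers. For granulocyte markers it had 65093, against 38185 in vector replicate 2. The exception was sort and stem cell markers, where it had 13340, against 18776 in vector replicate 2. Between imatinib and BCR/ABL, the comparison that chose the 4 genes, sort and stem cell markers were higher in 8 of 8 (median 0.53), or in 6 of 8 with arrays centred on their medians (median 0.34), so they differed in the same direction as the 4 genes. In that comparison mast cell and basophil markers were higher in 8 of 9, megakaryocyte markers in 6 of 7, granulocyte markers in 6 of 9 (1 of 9 with arrays centred on their medians), T cell markers in 4 of 7, erythroid markers in 2 of 6, macrophage and dendritic cell markers in 2 of 10 and B cell markers in 0 of 9, with 0 called in each. The part of these cells in the levels of the 4 genes was not tested.

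The other Argonaute genes did not follow Ago4 in size. Ago1 had 2822 and 3461 with imatinib, 2295 and 2201 in BCR/ABL, and 2718 and 3017 in vector, a difference between imatinib and BCR/ABL of 0.51 (limma adjusted p = 0.183). Its order was that of Ago4 between imatinib and BCR/ABL, where the groups did not overlap, and imatinib and vector did overlap. The brightest probe set of Ago2, which encodes the Argonaute that can cut its target, differed by 0.14 (adjusted p = 0.713) and that of Ago3 by -0.23 (adjusted p = 0.820). Whether the differences of Ago4 and of its relatives were unequal was not tested.

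Of the 14 other genes of the Argonaute and microRNA pathway, 8 were higher and 6 lower with imatinib than in BCR/ABL, 0 passed the threshold, and the median difference was 0.12, against -0.01 over all genes. With arrays centred on their medians, which moved the median of all genes to -0.18, 5 were higher and 9 lower and the median was -0.14, so the list's direction depended on the scaling. With no further normalization 10 were higher and 4 lower, with a median of 0.10. The smallest p-values belonged to Tnrc6c, a GW182 protein that carries out silencing (0.58, limma adjusted p = 0.149), Ago1, the RNA helicase gene Ddx6 (0.36, adjusted p = 0.198) and Xpo5, the exporter of microRNA precursors (-0.56, adjusted p = 0.321). Drosha and Dicer1, the nucleases that cut the precursors, differed by -0.05 and -0.42 (adjusted p = 0.904 and 0.537). Against vector, the median was -0.14 with imatinib and -0.25 in BCR/ABL, with 0 calls in each and Tnrc6c (0.36, adjusted p = 0.323) and Tnrc6a (-0.31, adjusted p = 0.337) having the smallest p in turn.

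Among the other phosphodiesterases that degrade cyclic AMP, Pde3b and Pde4d had the smallest p-values between imatinib and BCR/ABL. Pde3b had 1740.1 and 1163 with imatinib, 553 and 387 in BCR/ABL, and 642 and 650.3 in vector. Its difference between imatinib and BCR/ABL of 1.55 (limma adjusted p = 0.118) was larger than that of Pde4b, and its imatinib arrays were above the other 4. Pde4d, of the same subfamily as Pde4b, had 657 and 945 with imatinib, 480.0 and 427 in BCR/ABL, and 645 and 694 in vector, a difference of 0.73 (adjusted p = 0.222), with imatinib and vector overlapping. Pde8a and Pde7b, next by p-value, differed by 0.36 and 0.70 (adjusted p = 0.395 and 0.551). Pde4a was dim and differed by -0.58 (adjusted p = 0.589), and Pde4c was not analysed here.

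Over the 14 other phosphodiesterases measured, 7 were higher and 7 lower with imatinib than in BCR/ABL, 0 passed, and the median was 0.18. Of the 22 measured genes of cyclic AMP synthesis and response, 17 were higher and 5 lower, 0 passed, and the median was also 0.18. With arrays centred on their medians that list had 11 higher and 11 lower with a median of 0.04, while the phosphodiesterases kept 7 higher and 7 lower with a median of 0.06, both against -0.18 over all genes. With no further normalization, where the median of all genes was 0.06, the phosphodiesterases had 10 higher and 4 lower with a median of 0.29 and the synthesis and response list 18 higher and 4 lower with a median of 0.27. The protein kinase A subunit genes Prkar1a, Prkacb and Prkar2b differed by 0.38, 0.45 and 0.28 (limma adjusted p = 0.165, 0.225 and 0.291), and the adenylyl cyclase gene Adcy7 by 0.18 (adjusted p = 0.319). Against vector the phosphodiesterase median was 0.24 with imatinib and -0.12 in BCR/ABL, with 0 calls, and Pde8a had the smallest p in both, at 1.17 (adjusted p = 0.122) and 0.81 (adjusted p = 0.222). For cyclic AMP synthesis and response the medians were 0.09 with imatinib, or -0.06 with arrays centred on their medians, and -0.10 in BCR/ABL, with 0 calls.

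The relatives of Slc15a2 did not show its order of groups. Slc15a1, the intestinal peptide transporter, had 4.90 and 6.33 with imatinib, 23.7 and 19.3 in BCR/ABL, and 3.94 and 0.189 in vector, all near background, with a difference of -1.01 between imatinib and BCR/ABL (limma adjusted p = 0.124). Slc15a3 differed by -0.79 (adjusted p = 0.694) and Slc15a4 by -0.14 (adjusted p = 0.782), and Slc15a5 was below 16 on every array. Of the 12 other measured genes of peptide transport and breakdown, 3 were higher and 9 lower with imatinib than in BCR/ABL, 0 passed, and the median was -0.23. With arrays centred on their medians 2 were higher and 10 lower with a median of -0.46, against -0.18 over all genes. The peptidase genes Lap3, Pepd and Cndp2, whose products split short peptides, differed by -1.21, -0.76 and -0.47 (adjusted p = 0.102, 0.166 and 0.253). Lap3 had 904 and 899.9 with imatinib, 2096 and 2112 in BCR/ABL, and 1469.5 and 1348 in vector, so its groups were in the reverse order to those of Slc15a2. Anpep, the membrane aminopeptidase N, went the other way at 2.08 (adjusted p = 0.405), with widely spread vector values of 402 and 35.8. Against vector 6 were higher and 6 lower with imatinib (median -0.05), or 3 higher and 9 lower with arrays centred on their medians (median -0.21), and the median was 0.38 in BCR/ABL, with 0 calls in each.

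The median of the apoptotic cell uptake genes lay close to that of all genes under each scaling, and their counts moved with it. Of the 27 beside Mfge8, 14 were higher and 13 lower with imatinib than in BCR/ABL, 0 passed, and the median was 0.00, against -0.01 over all genes. With arrays centred on their medians 9 were higher and 18 lower (median -0.17, against -0.18 over all genes), and with no further normalization 19 were higher and 8 lower (median 0.07, against 0.06). Itgb3, the beta-3 chain of an integrin that binds lactadherin, had 2384 and 2894 with imatinib, 1405 and 1103 in BCR/ABL, and 419.9 and 619 in vector. It was highest with imatinib, as Mfge8 was, but vector was lowest, with 1.11 between imatinib and BCR/ABL (limma adjusted p = 0.146), 2.34 between imatinib and vector (adjusted p = 0.0805) and 1.24 between BCR/ABL and vector (adjusted p = 0.215). Its partner Itgav differed by 0.35 between imatinib and BCR/ABL (adjusted p = 0.265), Cd47, which signals against uptake, by 0.29 (adjusted p = 0.157), the bridging protein gene Pros1 by 0.56 (adjusted p = 0.242) and Gulp1, which encodes an adaptor of engulfment receptors, by 0.90 (adjusted p = 0.243). Gulp1 was dim, at 17.8 and 37.7 with imatinib against 6.89 and 1.40 in BCR/ABL and 2.79 and 11.1 in vector. Edil3, the closest relative of Mfge8 on the list, differed by 0.17 (adjusted p = 0.682) with an intensity below 16 on all 6 arrays. Against vector 18 were higher and 9 lower with imatinib (median 0.05), or 10 higher and 17 lower with arrays centred on their medians (median -0.08), and the median was 0.04 in BCR/ABL, with 0 calls in each.

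**Figure D4:**
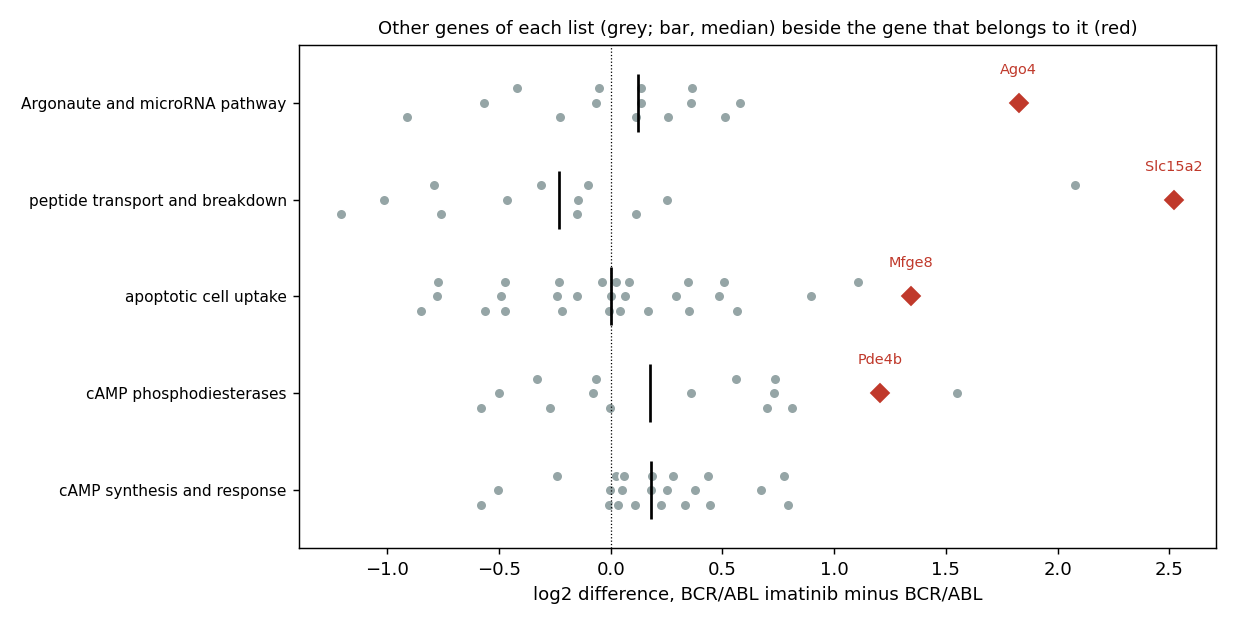
Log2 difference of imatinib minus BCR/ABL for each measured gene of 5 lists, with other genes in grey, their median as a bar and Ago4, Slc15a2, Mfge8 and Pde4b in red. The red genes lie at 1.21 to 2.52 because they were chosen by this difference, and the grey medians run from -0.23 to 0.18.

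The genes most like each of the 4 across the 6 arrays were listed by Pearson correlation among 2884 bright genes with a range of at least 1 log2 unit. The 6 points share 3 groups, so high values are common and are given as a description. The listed genes were picked for likeness over these same arrays. Their differences between groups, given below, therefore follow from that choice and are no separate support. Ago4 and Pde4b were each other's second nearest gene, at 0.99. Their lists shared Trp53inp1, a stress gene induced by p53, at 0.99 to Ago4 and 0.99 to Pde4b, and also Heca and Iffo1. The zinc finger repressor gene Klf3 closed the list of Pde4b, and Dtx3 was the third of Ago4. For these genes imatinib minus vector ran from 0.16 for Dtx3 to 0.52 for Trp53inp1.

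Slc15a2 was nearest to Crebrf, A630026N12Rik, Ypel3, Vwf and Mylip, at 0.99 each. Crebrf encodes a regulator of a CREB3 family factor, and Mylip a ubiquitin ligase of the LDL receptor. In these 5 genes imatinib stood above vector by 0.63 to 1.05 and BCR/ABL differed from vector by -0.99 to -0.65. Mfge8 was nearest to Tgfbr2, the type II receptor of TGF-beta, at 0.997, Neurl3 at 0.99, Fam210b at 0.99, the antiproliferative gene Tob1 at 0.98 and Mgst2, a glutathione transferase that can make leukotriene C4, at 0.98. In these 5, imatinib stood above vector by 0.76 to 1.80, while BCR/ABL differed from vector by -0.23 to -0.03. None of the other 3 genes was among the 5 nearest to Mfge8, and the same held for Slc15a2. The correlation of Mfge8 was 0.91 with Slc15a2, 0.80 with Pde4b and 0.76 with Ago4. That of Slc15a2 was 0.94 with Ago4 and 0.94 with Pde4b.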

How the data were processed

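Transcript levels were measured in 6 samples on 6 arrays. Per the submitters' processing notes, the deposited values are linear intensity values from Affymetrix Expression Console and MAS5 (versions not given in the sources used here), scaled by the authors: the mean after trimming 2% at each end was 500 on each array. The series text describes a whole-transcript array, while the probe sets are those of a 3-prime array (Mouse Genome 430 2.0), as used here. The number of arrays limits the precision, and detection calls were not used.

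From these, log2(value + 16) was quantile normalized, since array medians differed by more than 0.1, and all 35877 probe sets with a symbol were fitted in limma 3.58.1 (R 4.3.3; eBayes with trend) across all 6 arrays, with 3 residual degrees of freedom. Tests were two-sided, with Benjamini-Hochberg adjustment over all probe sets and a threshold of 0.05. The script was tested on simulated data.

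The 4 genes and all lists were chosen with earlier results of these data known. Named genes were all probe sets of the 4 genes, their relatives, the list genes with the smallest p (up to 4), and the 5 nearest genes by correlation. Anpep, Drosha, Dicer1, Itgav, Edil3 and the markers Kit, Hdc, Tpsab1 and Pdgfrb stand outside that rule and were chosen after their values were seen. Lists covered the 5 pathways described and markers of sorted stem cells, B and T cells, granulocytes, macrophages and dendritic cells, mast cells, erythroid cells, megakaryocytes and stroma. Alternatives changed the added constant, normalization, filter, variance prior, replicate block, array left out and probe set rule. The lists were also recomputed with arrays centred on their medians and with no further normalization, a choice made after seeing the data. Symbols came from the platform annotation (0 changed by a RefSeq table of GRCm38.p6), and promoter sequences from RefSeq.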

Additional observations from a re-analysis of the deposited data

How the results depend on the processing

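Depth of signal limits 5 of the 12 probe sets, which lie near or below 16, and 2 arrays a group leave wide intervals. No difference changed sign under any of the 15 alternatives. The filter, variance prior and block settings leave a difference as it was, and the genes were chosen by the sign of imatinib minus BCR/ABL. Passing the threshold against vector is no independent test either, because those comparisons share arrays and spread with that choice. Imatinib minus vector kept its side of the threshold for Ago4 (0.26 to 0.43), Slc15a2 (0.32 to 1.49) and Pde4b (0.06 to 0.35), and so did BCR/ABL minus vector for Slc15a2 (-1.38 to -0.57) and Mfge8 (-0.27 to -0.01). For BCR/ABL minus vector, Ago4 passed with 1 as the added constant (-1.53, adjusted p = 0.0491), with arrays centred on their medians (-1.34, adjusted p = 0.0345) and without probe sets under the 50th percentile (-1.48, adjusted p = 0.0308). Pde4b passed with 1 as the constant (-0.91, adjusted p = 0.0364) and above the 50th percentile (-0.91, adjusted p = 0.0253), and in that last setting Mfge8 passed for imatinib minus vector (1.11, adjusted p = 0.0350). Imatinib minus BCR/ABL moved, for Ago4, Slc15a2, Mfge8 and Pde4b in turn, to 1.60, 2.21, 1.01 and 0.84 with array medians, which shifted the median of all probe sets in that comparison to -0.27 (and to 0.20 in BCR/ABL minus vector). Adding 64 gave 1.66 for Ago4 and 1.29 for Mfge8, no further normalization gave 1.92 for Ago4 and 1.16 for Pde4b, and averaging the probe sets of a gene gave 1.67 for Ago4, 0.89 for Slc15a2 and 0.45 for Pde4b, where probe sets at the floor enter the mean. Leaving out 1 array gave 1.76 to 1.92 for Ago4, 2.27 to 2.79 for Slc15a2, 1.31 to 1.39 for Mfge8 and 1.16 to 1.26 for Pde4b.

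Counts of calls depended on the settings. In BCR/ABL against vector, 22 became 83 with 1 as the constant, 298 with array medians, 132 above the 50th percentile, 0 with a prior without trend, 42 with a robust prior and 0 to 38 with 1 array left out (0 without either BCR/ABL array, 2 without vector replicate 2, 38 without vector replicate 1). In imatinib against BCR/ABL, 0 became 3, 1200 (67 higher) and 211 (79 higher) in the first 3 of these settings. In imatinib against vector, 16 became 78, 275, 181, 0 and 28 in the same 5, 3 with 64 as the constant and 0 to 50 with 1 array left out (0 without imatinib replicate 1 or either BCR/ABL array, 10 without imatinib replicate 2, 30 and 50 without vector replicates 1 and 2). With the replicate number as a block it was 9, and the block changed no call of the 4 genes. Same-numbered arrays deviated together only weakly (correlations of 0.15, 0.16 and -0.08), so the numbers were not taken as pairs. Apart from the array left out, fewer probe sets tested or probe sets averaged, the cause of these moves was not tested.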
